A study of Mus musculus with 18 samples.

Results

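The response of the mouse pancreatic ductal adenocarcinoma line PD7591 to ionomycin was set against that of 2 other lines of the same tumour type, PD454 and PD883. For each gene, the log2 change from DMSO to ionomycin was taken in each line, and the mean of the changes in PD454 and PD883 was subtracted from the change in PD7591; this quantity is called the difference below. It is positive where the change in PD7591 was the more upward and negative where it was the more downward. The PD7591 side rests on 4 of the 18 libraries of the study, 2 with DMSO and 2 with ionomycin, and each of the other lines gave 4 libraries of the same kind. Cells were exposed for 48 h to DMSO as vehicle, to 2.5 µM ionomycin or to 10 ng/ml TGFb. The culture medium of all groups also held insulin, dexamethasone, cholera toxin and pituitary extract, and the strain background of the lines is labelled as mixed. Each line is 1 culture line, so the comparison is between these 3 cultures and not between classes of tumour.

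Ionomycin is an ionophore that carries calcium ions across membranes and raises calcium in the cytosol. Calcium bound to calmodulin activates the phosphatase calcineurin, which sends NFAT factors to the nucleus, and calmodulin-dependent kinases, which phosphorylate CREB at cyclic AMP response elements. Calcium entry also feeds the MAP kinase cascade, which switches on early response genes such as Fos, Jun and Egr1; Fos and Jun proteins pair to form AP-1. The genes of sterol and fatty acid synthesis are under the SREBP factors, which INSIG proteins hold in the endoplasmic reticulum when sterols are plentiful.

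The libraries held 17591005 to 37894692 counts each, and 13827 of 24527 genes passed the filter on low counts. The 2 libraries of every group differed by more than counting noise and were kept as separate samples. The labels do not say that they came from separate cultures, so p-values measure only the spread between these libraries, which may be technical. Levels are given in CPM, counts divided by the library's scaled total. The epithelial markers Cdh1, Epcam, Krt7, Krt8, Krt18 and Krt19 together reached 4814 to 9601 CPM in the DMSO and ionomycin libraries. In the same libraries the summed fibroblast markers reached at most 3.31 CPM, the endothelial markers 3.43 CPM and the acinar markers 1.44 CPM. The epithelial markers were uneven. Over all 18 libraries, with TGFb included, Epcam had only 0.732 to 4.3 CPM and Krt19 4.12 to 1746 CPM. Krt8 had 1376 to 3257 CPM there and Krt18 1467 to 3829 CPM. In bulk RNA, fewer cells of a type and less RNA per cell cannot be told apart.

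The effect of ionomycin in PD7591 differed from the mean of the other lines for 205 of the 13827 genes, 1.48% (edgeR quasi-likelihood F test of the difference itself, Benjamini-Hochberg adjusted p under 0.05). It was higher for 106 genes (0.767%) and lower for 99 (0.716%). The genes on the higher side included the cytokine gene Csf3, the complement gene C2, the ion pump regulator gene Fxyd5, the aldehyde dehydrogenase gene Aldh3a1 and the annexin gene Anxa8. On the lower side stood the AP-1 gene Jun, the early response gene Egr1, the kinase gene Pim1 and genes of sterol synthesis. Taken by itself, the effect in PD7591 passed the test for 2568 genes (18.6%), against 2909 (21%) in PD454 and 3112 (22.5%) in PD883. Of all genes, 11.2% rose and 7.41% fell in PD7591, 11.7% rose and 9.34% fell in PD454, and 11.6% rose and 10.9% fell in PD883. Across the genes tested, the effect in PD7591 had a Pearson correlation of 0.529 with that in PD454 and of 0.486 with that in PD883, and the effects in PD454 and PD883 had one of 0.575. Over the 12690 genes with more than 3 counts in each DMSO and ionomycin group, these were 0.611, 0.572 and 0.604. The order of the Pearson values thus depended on the sparse genes. Spearman correlations had the same order in both sets of genes. They were 0.557 and 0.571 for PD454 with PD883, 0.515 and 0.538 for PD7591 with PD454, and 0.471 and 0.488 for PD7591 with PD883. These are descriptions across genes, which are not independent replicates, and each effect carries the noise of its own DMSO libraries.

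**Figure D1:**
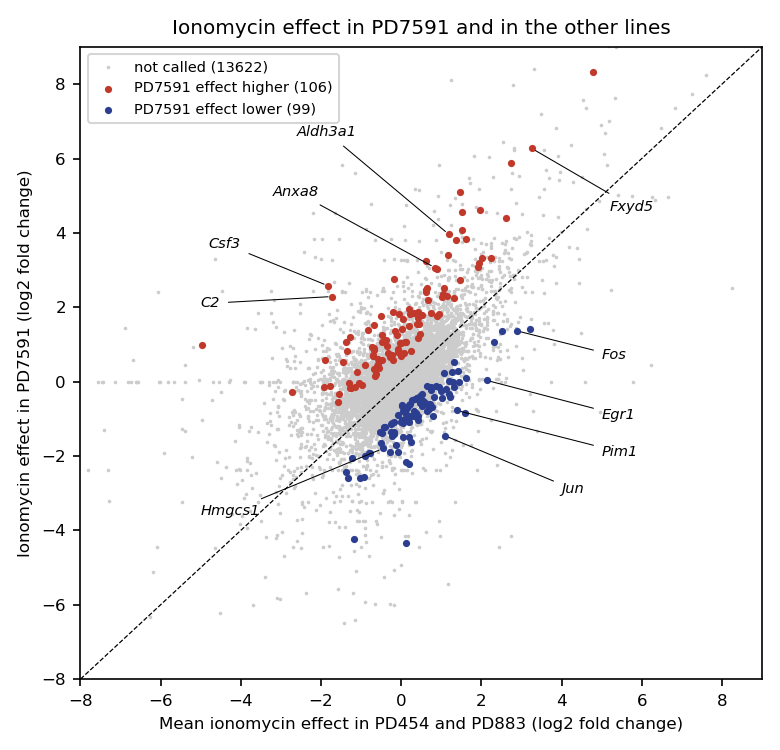
Ionomycin effect in PD7591 (vertical axis, log2 fold change) against the mean effect in PD454 and PD883 (horizontal axis, log2 fold change), 1 point per gene. The 106 genes whose effect was higher in PD7591 (red) lie above the line of equal effect and the 99 whose effect was lower (blue) below it; 7 genes fall outside the axes.

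Most of these genes were not apart from each of the other lines when those were taken singly. Both the difference from PD454 and the difference from PD883 passed the test, with 1 sign, for 43 genes (0.311%), 21 higher (0.152%) and 22 lower (0.159%) in PD7591; each single difference by itself passed for 0.904% and 2.16% of all genes. Of the 106 genes on the higher side, 21 differed from PD454 alone, 51 from PD883 alone and 13 from neither taken singly. Of the 99 genes on the lower side, 26 differed from PD454 alone, 30 from PD883 alone and 21 from neither. The number called depended on single libraries. It fell without any 1 of the PD7591 libraries 1 to 6, and most without DMSO library 1 or 2 or ionomycin library 4. The TGFb libraries 5 and 6 enter through the filter on low counts, the scaling and the shared estimate of spread. The part of each of these was not tested. The number called rose without DMSO library 8 or TGFb library 11 or 12 of PD883. It fell without DMSO library 7 or ionomycin library 9 or 10 of that line. It was 91 without DMSO library 14 of PD454, 62 and 74 without its ionomycin library 15 or 16, and 310 without its DMSO library 13. Without the 4 libraries rich in short transcripts (DMSO 14 and TGFb 18 of PD454, DMSO 8 and TGFb 12 of PD883), 307 genes were higher and 450 lower, a higher share of 40.6% against 51.7% with all libraries. With library totals in place of the scaling factors, 124 genes were higher and 88 lower, a higher share of 58.5%.

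The early response genes were the first group on the lower side. Of 32 tested genes of the AP-1 and early response list, 6 were lower in PD7591 (18.8%, against 0.716% of all genes) and none was higher. The 6 were Jun, Egr1, Fos, Atf3, Klf6 and Dusp4. Of these 6, 3 differed from both other lines taken singly. The median difference of the list was -0.62, against 0.06 over all genes, and 26 of its 32 differences were negative. PD7591 had the lowest effect of the 3 lines for 23 of the 32 genes (71.9%), against 30.7% of all genes tested. Within PD7591 ionomycin raised 10 of the 32 genes and lowered 5, whereas it raised 21 in PD454 and 12 in PD883 and lowered none in either. Without the 4 libraries rich in short transcripts, the median difference of the list was -0.57, against 0.01 over all genes. There 84.4% of its differences were negative, against 48.6% of all genes. The number called lower, 6 with all libraries, depended on single libraries. It was 2 without DMSO library 2 or ionomycin library 4 of PD7591 or ionomycin library 15 or 16 of PD454, and 3 without DMSO library 1 or ionomycin library 3 of PD7591.

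Egr1, a zinc-finger factor of the early response, stood at 47.4 and 54.4 CPM with DMSO and at 48 and 56.2 CPM with ionomycin in PD7591. In PD454 it went from 45.7 and 43.3 CPM to 268 and 237 CPM, and in PD883 from 47.4 and 35.8 CPM to 132 and 149 CPM. The DMSO and ionomycin libraries of PD7591 overlapped, while the 2 treatments were fully apart in the other lines. The effect was 0.03 ± 0.17 (log2, SE) in PD7591, 2.51 ± 0.17 in PD454 and 1.75 ± 0.17 in PD883, and the difference was -2.10 ± 0.20 (edgeR adjusted p = 0.000416).

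Jun, the partner of Fos in AP-1 (chr4:95049036-95052222), fell in PD7591 from 35.9 and 39.4 CPM to 15 and 12.5 CPM. It rose in PD454 from 15.4 and 17 CPM to 61.2 and 72.3 CPM. In PD883 the values were 22.6 and 25.7 CPM with DMSO and 19.4 and 34.2 CPM with ionomycin, and those libraries overlapped. With DMSO, Jun was thus above the other lines in both PD7591 libraries, and with ionomycin it was below them in both. The effect was -1.46 ± 0.22 in PD7591, 2.04 ± 0.22 in PD454 and 0.15 ± 0.21 in PD883, and the difference was -2.55 ± 0.26 (edgeR adjusted p = 0.000425).

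Fos itself (chr12:85473890-85477274) rose in all 3 lines. It went from 5.01 and 4.23 CPM to 13.3 and 10.4 CPM in PD7591, from 8.89 and 7.27 CPM to 60.9 and 64.7 CPM in PD454, and from 3.93 and 2.14 CPM to 19.4 and 22.5 CPM in PD883. The ionomycin libraries of PD7591 were the lowest of the 6, with no overlap with those of the other lines. The rise was 1.37 ± 0.23 against 2.97 ± 0.23 and 2.81 ± 0.24 (difference -1.52 ± 0.28, edgeR adjusted p = 0.018). Atf3, a stress-induced factor that can pair with Jun, followed a like order, with rises of 1.07, 2.52 and 2.11 in PD7591, PD454 and PD883 (difference -1.25 ± 0.28, edgeR adjusted p = 0.0454). Klf6, a Kruppel-like factor, fell by 0.43 in PD7591 and rose by 0.64 in PD454 (difference -0.88), and Dusp4, a MAP kinase phosphatase, rose least in PD7591 (difference -0.79). The calls of Fos, Atf3, Klf6 and Dusp4 were lost in 5, 13, 7 and 12 of 27 alternative settings, and those of Egr1 and Jun in none. Nr4a1, an orphan nuclear receptor of the list chosen after its values were seen, rose by 1.07 in PD7591, 1.46 in PD454 and 1.32 in PD883, and its difference of -0.33 ± 0.29 did not pass the test (edgeR adjusted p = 0.601).

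**Figure D2:**
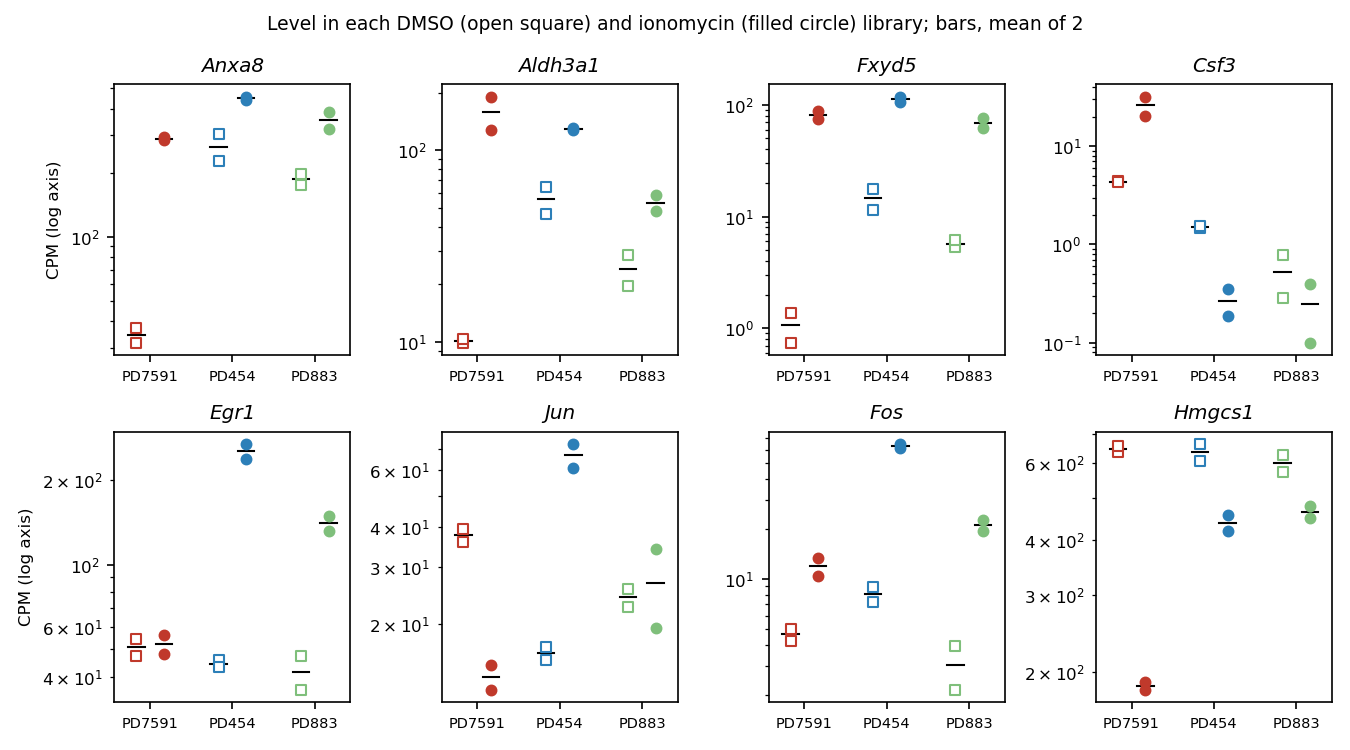
Level in each library (CPM, logarithmic vertical axis) of 8 genes, by line; open squares are DMSO libraries, filled circles ionomycin libraries and bars the mean of the 2 libraries. Anxa8, Aldh3a1 and Fxyd5 start lowest in PD7591 with DMSO, Csf3 rises in PD7591 alone, and Egr1 keeps its DMSO level in PD7591.

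Other signalling genes on the lower side had the same shape, rising in PD454 and PD883 with no call in PD7591. Dusp8, a phosphatase of stress-activated MAP kinases (chr7:142079487-142095907), had 7.03 and 7.15 CPM with DMSO and 8.18 and 5.86 CPM with ionomycin in PD7591, and rose by 1.77 ± 0.18 in PD454 and 1.13 ± 0.18 in PD883 (difference -1.47 ± 0.22, edgeR adjusted p = 0.00541). Abtb2, an ankyrin repeat and BTB domain gene, rose by 1.56 in PD454 and 1.09 in PD883 against an effect of -0.15 in PD7591 (difference -1.48 ± 0.24, edgeR adjusted p = 0.0091). Mapk4, an atypical MAP kinase gene, rose by 1.61 and 1.59 against an effect of -0.84 in PD7591 (difference -2.44 ± 0.41, edgeR adjusted p = 0.00954). The calls of Abtb2 and Mapk4 were lost in 2 and 2 of 27 settings. In all, 19 genes of the lower side rose in both other lines and were not called in PD7591, and 31 fell in PD7591 and were called in neither other line. A further 14 fell in PD7591 and rose in 1 other line. In 5 genes, Fos, Atf3 and Dusp4 among them, all 3 lines rose and PD7591 the least.

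Pim1, Plk2 and Pask were the only genes on the lower side called as falling in PD7591 and as rising in both other lines. Pim1, a serine/threonine kinase gene (chr17:29490785-29496111), went from 21.2 and 29.1 CPM to 14.8 and 14.6 CPM in PD7591. It went from 25.2 and 24 CPM to 71.1 and 62.8 CPM in PD454, and from 26.4 and 19.4 CPM to 71.7 and 43.9 CPM in PD883. The 3 lines thus overlapped with DMSO, and with ionomycin the PD7591 libraries lay below all others (difference -2.17 ± 0.32, edgeR adjusted p = 0.00466). Its fall within PD7591 was close to the threshold (edgeR adjusted p = 0.0497). Plk2, a polo-like kinase gene, fell by 0.60 in PD7591 and rose by 0.75 in PD454 and 0.71 in PD883 (difference -1.33 ± 0.19, edgeR adjusted p = 0.00485). Pask, the PAS domain kinase gene, had effects of -0.61, 0.55 and 0.72 (difference -1.24 ± 0.23, edgeR adjusted p = 0.0173; lost in 5 of 27 settings). In the opposite direction a single gene was found. Nrip2, a nuclear receptor-interacting protein gene, rose in PD7591 from 7.03 and 8.2 CPM to 15.3 and 16.4 CPM and fell by 1.29 in PD454 and by 1.48 in PD883 (difference 2.44 ± 0.38, edgeR adjusted p = 0.00635; lost in 3 of 27 settings).

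**Figure D3:**
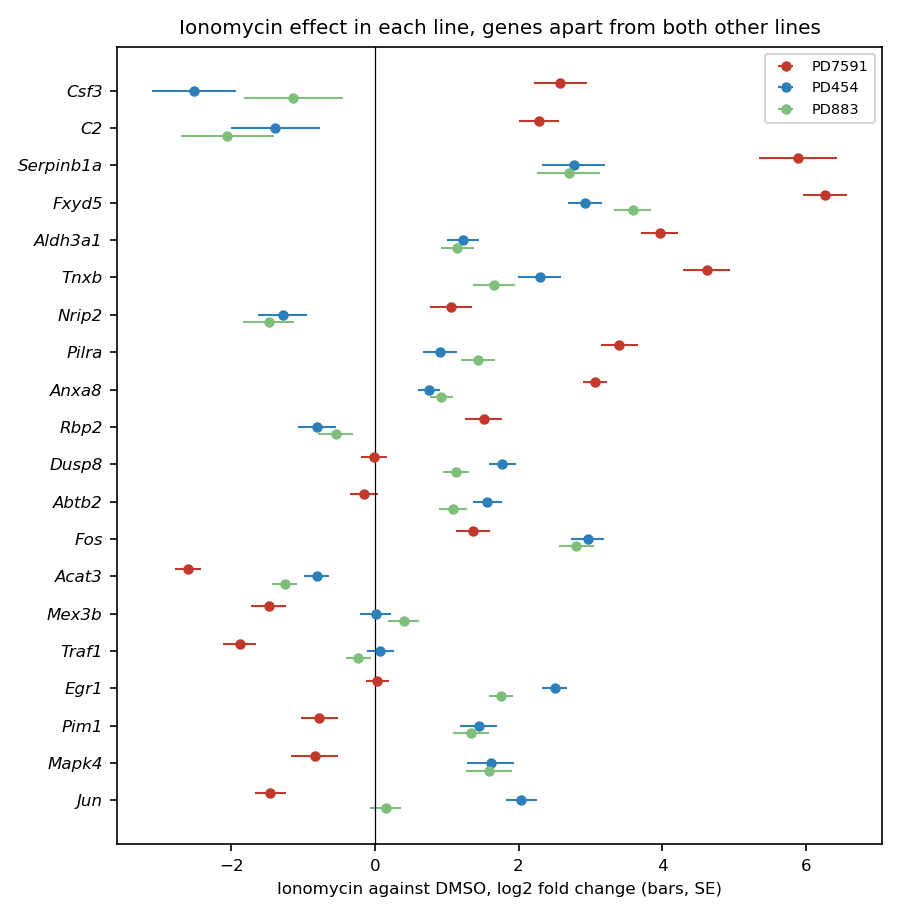
Ionomycin effect (log2 fold change, horizontal axis; bars, SE) in PD7591, PD454 and PD883 for 20 genes apart from both other lines, the 10 largest differences in each direction. For Csf3, C2, Nrip2 and Rbp2 the PD7591 effect is above 0 and the other effects are below it, and for Pim1 and Mapk4 the reverse holds.

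The letters upstream of these genes were read for the cyclic AMP response element TGACGTCA, the site bound by CREB; it reads the same on both strands and does not hold the AP-1 letters TGANTCA. RefSeq gives the 250 bases before the start of transcription (GRCm38.p6) for 75 of the 99 genes on the lower side, and 8 of these (10.7%) hold it at 1 or more of their listed starts: Creb5, Dusp8, Errfi1, Plk2, Slc25a25, Trim26, Tubb2a and Zfp367. The calls of Creb5, Slc25a25, Tubb2a and Zfp367 were lost in 12, 10, 12 and 11 of 27 settings and that of Errfi1 in 1, and those of Dusp8, Plk2 and Trim26 in none. It was found in none of 83 promoters of the higher side and in 319 of 10542 promoters of all genes tested (3.03%). Other motifs were searched on both strands of the same promoters. The AP-1 letters TGANTCA were in 6.67% of the promoters of the lower side and 8.43% of the higher side, against 6.09% of all. The antioxidant response element core TGACNNNGC was in 14.7% and 6.02%, against 13.9%. An NF-kB motif with its middle bases free was in 76% and 67.5%, against 66.4%, and the sterol regulatory element TCACNCCAC in 4% (3 promoters) and 3.61% (3), against 1.29%. The motifs were chosen after the values were seen, and a match is a description of the letters and not of binding. In Dusp8, Errfi1, Slc25a25 and Zfp367 the stretch with the element lies at a start inside the outer bounds of the gene in RefSeq, and not before them. The 2 promoters printed here, with the element in capitals, belong to genes of the lower side that differed from both other lines, and that of Trim26 overlaps its gene's outer bounds by 23 bases. The stretches are chr13:110394794-110395043 on the plus strand for Plk2 and chr17:36836896-36837145 on the plus strand for Trim26, each written 5′ to 3′.
Plk2: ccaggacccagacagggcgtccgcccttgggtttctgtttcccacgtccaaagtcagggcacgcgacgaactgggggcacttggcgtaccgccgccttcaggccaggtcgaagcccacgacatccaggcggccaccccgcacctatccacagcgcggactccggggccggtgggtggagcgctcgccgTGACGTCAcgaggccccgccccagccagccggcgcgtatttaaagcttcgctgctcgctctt
Trim26: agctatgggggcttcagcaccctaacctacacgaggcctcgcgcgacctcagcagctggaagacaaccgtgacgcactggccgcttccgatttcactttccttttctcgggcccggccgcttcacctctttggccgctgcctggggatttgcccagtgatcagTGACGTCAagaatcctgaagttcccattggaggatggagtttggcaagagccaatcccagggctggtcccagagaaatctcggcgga
The element begins 62 bases before the start in Plk2 and 87 in Trim26, and the stretch of Dusp8, not printed, holds it at 2 places. Trim26, a gene of the tripartite motif family named after its values were seen, had 53.2 and 59.7 CPM with DMSO and 66.5 and 71.8 CPM with ionomycin in PD7591. It rose from 42.5 and 44.8 CPM to 98.3 and 97.7 CPM in PD454 and from 52.4 and 45.3 CPM to 169 and 139 CPM in PD883 (difference -1.12 ± 0.16, edgeR adjusted p = 0.00406). Errfi1, which encodes an inhibitor of the EGF receptor, fell in PD7591 from 207 and 203 CPM to 108 and 109 CPM, rose by 0.65 in PD454 and had an effect of -0.12 in PD883 (difference -1.18 ± 0.18, edgeR adjusted p = 0.00541).

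Most tested genes of cholesterol and fatty acid synthesis fell in each of the 3 lines, and most of them had their lowest effect in PD7591. Of 36 tested genes, ionomycin lowered 30 in PD7591, 20 in PD454 and 24 in PD883 and raised none in any line. The median effect was -1.19 in PD7591, -0.54 in PD454 and -0.71 in PD883. The difference passed the test for 8 of the 36 (22.2%, against 0.716% of all genes), all lower in PD7591, among them Hmgcs1, Lss, Insig1, Scd2, Hsd17b7, Cyp51 and Fads2. Of these 8, 3 differed from both other lines taken singly. The median difference was -0.56, against 0.06 over all genes, and 34 of 36 differences were negative. PD7591 had the lowest effect of the 3 lines for 32 of the 36 genes (88.9%, against 30.7% of all genes). Without the 4 libraries rich in short transcripts, the median difference was -0.55, against 0.01 over all genes, and 33 of 36 differences were negative. The number called lower, 8 with all libraries, depended on single libraries. It was 3 without any 1 of the 6 PD7591 libraries (1 to 6), DMSO library 14 or ionomycin library 15 or 16 of PD454, and 5 without DMSO library 7 or ionomycin library 9 or 10 of PD883.

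Hmgcs1 and Insig1 were among the genes called. Hmgcs1, whose enzyme makes HMG-CoA (chr13:119690351-119708260), fell in PD7591 from 636 and 655 CPM to 189 and 182 CPM. It went from 663 and 607 CPM to 457 and 420.3 CPM in PD454 and from 626 and 573 CPM to 449 and 478 CPM in PD883. The DMSO levels of the 3 lines overlapped, and with ionomycin both PD7591 libraries lay below all 4 others (difference -1.35 ± 0.16, edgeR adjusted p = 0.0019). Insig1, the SREBP retention factor, fell by 1.91 in PD7591, 0.90 in PD454 and 0.65 in PD883 (difference -1.14 ± 0.17, edgeR adjusted p = 0.00541).

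Further along the branch, Lss, the lanosterol synthase gene (chr10:76531565-76557139), fell from 211 and 215 CPM to 79.9 and 88.2 CPM in PD7591. In PD454 it had 312 and 298 CPM with DMSO and 272 and 265 CPM with ionomycin, and in PD883 299.6 and 286 CPM and 267 and 246 CPM. The effect was -1.34 ± 0.12 in PD7591 against -0.18 and -0.19, neither of which passed the test (difference -1.16 ± 0.15, edgeR adjusted p = 0.00212). Cyp51, the lanosterol demethylase gene, and Hsd17b7, a keto reductase gene of sterol synthesis, had differences of -0.88 and -0.89. On the fatty acid side, the desaturase genes Scd2 and Fads2 fell by 2.44 and 2.06 in PD7591, by 1.23 and 1.08 in PD454 and by 1.51 and 1.35 in PD883. The calls of Cyp51, Hsd17b7, Scd2 and Fads2 were lost in 13, 16, 10 and 14 of 27 settings, and those of Hmgcs1, Lss and Insig1 in none. Outside the list, Acat3 and Acat2, neighbouring genes for acetyl-CoA acetyltransferases on chromosome 17, had differences of -1.57 ± 0.22 and -1.27 ± 0.22 (edgeR adjusted p = 0.00346 and 0.0125). They are paralogs, so reads may be shared between them, and Acat2, whose call was lost in 3 of 27 settings, is named after its values were seen. Of members chosen after their values were seen because their differences were small, Dhcr7, the last enzyme gene of cholesterol synthesis, fell by 0.87, 1.00 and 0.90 in PD7591, PD454 and PD883, and Fasn, the fatty acid synthase gene, by 0.93, 0.81 and 0.79.

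The promoter of Hmgcs1, the list member with the smallest p, is shown because it holds a sterol regulatory element of the form TCACNCCAC, the kind of site bound by SREBP. It spans chr13:119690101-119690350 on the plus strand (RefSeq, GRCm38.p6), and the element in capitals begins 137 bases before the start of transcription.
Hmgcs1: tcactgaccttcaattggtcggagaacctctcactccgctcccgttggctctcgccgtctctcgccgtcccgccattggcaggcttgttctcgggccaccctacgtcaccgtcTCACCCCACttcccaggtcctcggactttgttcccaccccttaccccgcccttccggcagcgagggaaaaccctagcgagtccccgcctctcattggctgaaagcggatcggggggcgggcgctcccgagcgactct
On either strand the letters were found in 1 of 25 list members with a promoter in RefSeq (4%), against 1.29% of all promoters searched.

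**Figure D4:**
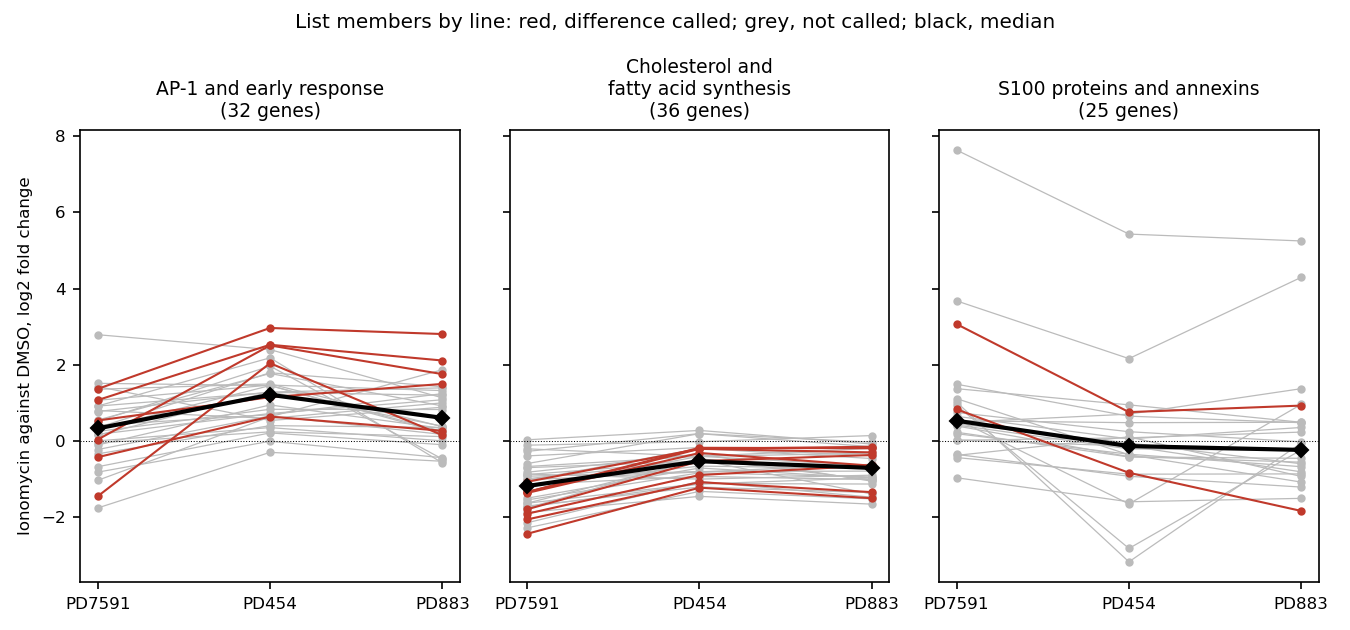
Ionomycin effect in each line (log2 fold change, vertical axis) for each member of the AP-1 and early response list (32 genes), the cholesterol and fatty acid synthesis list (36) and the S100 protein and annexin list (25); members whose difference passed the test are red. The medians are 0.33, 1.21 and 0.60 in the first list and -1.19, -0.54 and -0.71 in the second, in the order PD7591, PD454, PD883.

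On the higher side, most genes began low in PD7591. By construction, the difference equals the gap between PD7591 and the mean of the other lines with ionomycin, minus the same gap with DMSO. Of the 106 genes, 74 (69.8%) were below the other lines with DMSO in the same model, and 46 (43.4%) were above them with ionomycin. For 43 genes the gap was called with DMSO and not with ionomycin, for 17 the level was below in both, and 14 passed from below to above. On the lower side, 39 of the 99 (39.4%) were above the other lines with DMSO, and 76 (76.8%) were below them with ionomycin, 50 of these from a DMSO level that was not called. Over all genes tested, PD7591 was above the other lines for 12.3% and below for 13.4% with DMSO, and above for 13.2% and below for 12.1% with ionomycin. These counts use the libraries that gave the difference and are a description only.

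Anxa8 encodes annexin A8, a protein that binds phospholipids in the presence of calcium (chr14:34085979-34100571), and had the smallest p on the higher side. It rose in PD7591 from 37.4 and 31.7 CPM to 294 and 285 CPM. In PD454 it went from 226 and 305 CPM to 455 and 441 CPM, and in PD883 from 197 and 175 CPM to 322 and 385 CPM. The PD7591 libraries were the lowest with DMSO, and with ionomycin they were still below the other lines. The effect was 3.07 ± 0.17 against 0.76 ± 0.15 and 0.93 ± 0.15, and the difference was 2.23 ± 0.19 (edgeR adjusted p = 0.000167).

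Fxyd5 encodes dysadherin, a regulator of the sodium-potassium pump (chr7:31032723-31042331). It rose in PD7591 from 1.39 and 0.741 CPM to 74.5 and 87.4 CPM, in PD454 from 11.4 and 17.7 CPM to 118 and 105 CPM and in PD883 from 5.3 and 6.13 CPM to 62.2 and 75.7 CPM. With DMSO the PD7591 libraries were below all others, and with ionomycin those of PD7591 and PD883 overlapped. The effects were 6.27 ± 0.31, 2.93 ± 0.24 and 3.59 ± 0.25 (difference 3.01 ± 0.34, edgeR adjusted p = 0.000857). Serpinb1a, an inhibitor of neutrophil proteases, also rose in all 3 lines from a lower DMSO level in PD7591, from 0.959 and 1.4 CPM to 83.5 and 58.1 CPM, with effects of 5.89 ± 0.54, 2.77 ± 0.44 and 2.70 ± 0.44 (difference 3.16 ± 0.60, edgeR adjusted p = 0.0197). Its call was lost in 8 of 27 settings, among them leaving out any 1 of the 4 DMSO and ionomycin libraries of PD7591 (edgeR adjusted p from 0.0549 to 0.175).

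Aldh3a1, whose enzyme oxidises aldehydes (chr11:61208510-61218418), rose from 9.91 and 10.4 CPM to 128 and 190.1 CPM in PD7591. It rose from 46.4 and 64.7 CPM to 131 and 128 CPM in PD454 and from 19.6 and 28.5 CPM to 48.2 and 58.6 CPM in PD883. PD7591 was the lowest line with DMSO and overlapped PD454 with ionomycin. The effects were 3.96 ± 0.25, 1.22 ± 0.22 and 1.15 ± 0.23 (difference 2.78 ± 0.28, edgeR adjusted p = 0.000425). Tnxb, the gene of the matrix protein tenascin-X (chr17:34660453-34719815), went from 7.89 and 10.1 CPM to 231 and 212 CPM in PD7591 and rose by 2.29 ± 0.30 in PD454 and 1.66 ± 0.29 in PD883 (difference 2.64 ± 0.36, edgeR adjusted p = 0.00336). A pseudogene, Cyp21a2-ps, overlaps its exons on the other strand, and the strand setting of the counting is not given in the sources used here. Exons of Acat3, Atf5, C2, Cyp51, Fn1, Hmgcs1, Itga4, Lss, Nrip2, Pask, Pilra, Pilrb1, Pilrb2, Pim1, Retsat, S100a4, Scd2, Slc25a25, Vil1, Wnt7b and Zfp367 also overlap those of other annotated genes, so some of their reads may belong to these. Pilra, a paired immunoglobulin-like receptor gene, rose by 3.40 ± 0.26, 0.90 ± 0.24 and 1.43 ± 0.24 (difference 2.24 ± 0.30, edgeR adjusted p = 0.00279).

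Some actin-binding genes were on the higher side, and of the genes in this paragraph Capg, Gsn, Lgals3 and Scin are named after their values were seen. Capg, an actin-capping protein gene, rose in PD7591 from 24.5 and 22.9 CPM to 106 and 111 CPM, while PD454 began at 111 and 147 CPM and PD883 at 148 and 135 CPM (difference 1.52 ± 0.20, edgeR adjusted p = 0.00252). Gsn, gelsolin, which severs actin filaments in the presence of calcium, rose from 78.5 and 89.9 CPM to 524 and 441 CPM, with effects of 2.52 in PD7591, 1.73 in PD454 and 0.41 in PD883, the last not passing the test (difference 1.45 ± 0.21, edgeR adjusted p = 0.00406). Vil1, villin, rose from 2.77 and 3.66 CPM to 12 and 8.66 CPM in PD7591; it had 37.6 and 32 CPM with DMSO and 36.2 and 36.3 CPM with ionomycin in PD454, and 42.9 and 40.0 and 34.3 and 51 CPM in PD883 (difference 1.62 ± 0.34, edgeR adjusted p = 0.0342; lost in 10 of 27 settings). The DMSO and ionomycin libraries of PD7591 thus all lay below those of the other lines. Scin, the gene of adseverin, which belongs to the gelsolin family with Capg, Gsn and Vil1, went the other way. It had 26 counts in the 2 DMSO libraries of PD7591 together and 1 with ionomycin, against 9 and 13 in PD454 and 16 and 10 in PD883, and its fitted difference passed the test as lower (edgeR adjusted p = 0.0441; lost in 14 of 27 settings). Of the 26 tested actin and contractile genes, Vil1 was higher (3.85%, against 0.767% of all genes). Cald1, the gene of caldesmon, was lower (3.85%, against 0.716%). Its difference was -0.82 ± 0.19 (edgeR adjusted p = 0.0454, lost in 14 of 27 settings). Of the 26 differences, 18 were negative (69.2%, against 45.3% of all genes). Outside the actin genes, Lgals3, galectin-3, rose by 1.94 ± 0.27 in PD7591. Its effects of 0.15 and 0.24 in the other lines did not pass the test (difference 1.75 ± 0.32, edgeR adjusted p = 0.0174). The calls of Gsn and Lgals3 were lost in 1 and 4 of 27 settings; for Lgals3 these left out DMSO library 1 or 2 or ionomycin library 4 of PD7591 or ionomycin library 16 of PD454 (edgeR adjusted p up to 0.13).

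Csf3 and C2 were higher in PD7591 before treatment and moved further from the other lines. Csf3, the gene of granulocyte colony-stimulating factor (chr11:98700183-98703631), rose in PD7591 from 4.42 and 4.32 CPM to 31.8 and 20.4 CPM. In PD454 it fell from 1.48 and 1.53 CPM to 0.185 and 0.349 CPM, and in PD883 it had 0.285 and 0.773 CPM with DMSO and 0.0994 and 0.391 CPM with ionomycin. The ionomycin levels rest on few counts, 4 and 6 in PD454 and 2 and 8 in PD883, so the effects there are imprecise. Both PD7591 treatments were above every DMSO and ionomycin library of the other lines. The effects were 2.58 ± 0.37, -2.52 ± 0.58 and -1.14 ± 0.69 (difference 4.41 ± 0.58, edgeR adjusted p = 0.00257). C2, complement component 2 (chr17:34862602-34882100), rose from 5.12 and 5.63 CPM to 28.1 and 24.5 CPM in PD7591. It had 0.329 and 0.36 CPM with DMSO and 0.0462 and 0.233 CPM with ionomycin in PD454, and 0.342 and 0.5 and 0.149 and 0.0489 CPM in PD883 (difference 4.01 ± 0.52, edgeR adjusted p = 0.00236). These levels too are near the floor, with 1 and 4 counts with ionomycin in PD454 and 3 and 1 in PD883. The effects of C2 were 2.29 ± 0.28, -1.39 ± 0.62 and -2.05 ± 0.65, and that in PD454 did not pass the test. Rbp2, a cellular retinol-binding protein gene, rose by 1.51 ± 0.25 in PD7591 and fell by 0.81 in PD454, with an effect of -0.55 ± 0.24 in PD883 that did not pass (difference 2.19 ± 0.31, edgeR adjusted p = 0.00404); its DMSO levels were 17.5 and 15.9 CPM in PD7591, 10.7 and 16.8 CPM in PD454 and 151 and 152 CPM in PD883.

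Neutrophil-related secreted proteins other than Csf3 were also among the higher genes. Lcn2, lipocalin-2, rose in PD7591 from 3.84 and 7.2 CPM to 118 and 143 CPM and in PD883 from 13.5 and 10.3 CPM to 101 and 37.7 CPM; in PD454 it had 0.878 and 1.32 CPM with DMSO and 1.89 and 1.22 CPM with ionomycin (difference 3.05 ± 0.49, edgeR adjusted p = 0.00813). Cxcl5, a chemokine that attracts neutrophils, rose from 12.6 and 15.3 CPM to 102 and 87.7 CPM in PD7591, with effects of -0.50 ± 0.49 and 0.14 ± 0.49 in the other lines that did not pass (difference 2.94 ± 0.55, edgeR adjusted p = 0.0185). For both genes the difference from PD883 taken singly did not pass (edgeR adjusted p = 0.0605 for Lcn2 and 0.0514 for Cxcl5). The calls of Lcn2 and Cxcl5 were lost in 3 and 6 of 27 settings, with edgeR adjusted p up to 0.104 and 0.162; leaving out DMSO library 1 or ionomycin library 4 of PD7591 ended both. The summed immune markers lay between 3.84 and 5.93 CPM with DMSO, and with ionomycin between 12.9 and 17.6 CPM in PD7591, 9.07 and 10.4 CPM in PD454 and 11.8 and 29.5 CPM in PD883. Cd14, the gene of a lipopolysaccharide co-receptor of myeloid cells, is in the immune marker list but not among the 8 markers summed, and it was itself called higher. It rose in PD7591 from 69.8 and 79.2 CPM to 120.4 and 187 CPM, and had 32.8 and 43.4 CPM with DMSO and 42.9 and 37.9 CPM with ionomycin in PD454 and 59.6 and 70.3 and 55.4 and 61.9 CPM in PD883 (difference 1.08 ± 0.24, edgeR adjusted p = 0.0387; lost in 14 of 27 settings). It was the only 1 of the 6 tested immune markers that passed (16.7%, against 0.767% of all genes called higher). The part of myeloid cells in the result was not tested. The lysosomal protein gene Cd68 gave most of the sum, while Ptprc, the pan-leukocyte marker, stayed at or below 0.274 CPM.

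The wider list of chemokines, cytokines and NF-kB genes did not move one way, with a median difference of 0.06. Of 42 tested, 2 were higher (4.76%, against 0.767% of all genes) and 2 lower (4.76%, against 0.716%). The lower ones were Traf1, a TNF receptor adaptor gene, and Tnfaip3, which encodes the NF-kB inhibitor A20. Traf1 fell in PD7591 from 3.25 and 4.19 CPM to 0.894 and 1.13 CPM, with effects of 0.07 ± 0.19 in PD454 and -0.23 ± 0.18 in PD883 that did not pass (difference -1.81 ± 0.27, edgeR adjusted p = 0.00485). Tnfaip3 fell by 1.64 in PD7591 and 1.04 in PD883 and had an effect of 0.01 in PD454 (difference -1.13 ± 0.18, edgeR adjusted p = 0.0072; lost in 2 of 27 settings).

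In the remaining lists few members passed the test. Of 25 S100 proteins and annexins, 2 were higher, Anxa8 and S100a4 (8%, against 0.767% of all genes), and 23 of the 25 differences were positive (92%, against 54.7% of all genes; median difference 0.67). Without the 4 libraries rich in short transcripts, 2 of which are DMSO controls of the other lines, 19 of 24 were positive (79.2%, against 51.4%; median 0.38). The respiratory chain genes, none of which rose or fell in any line, had 26 of 28 differences positive (92.9%) with all libraries and 13 of 28 (46.4%) without the 4. The median transcript length of the S100 and annexin list was 759 bases and that of the respiratory chain list 707 bases, against 1433 bases over all genes of the fit without the 4. Across genes, which are not independent replicates, the difference had a Pearson correlation of -0.10 with the log2 of transcript length with all libraries and of -0.01 without the 4. The genes called higher had a median length of 1189 bases and those called lower 1958 bases, and the part of length in single calls was not tested. S100a4 had effects of 0.83 in PD7591, -0.84 in PD454 and -1.84 in PD883, of which the last alone passed the test (difference 2.17 ± 0.44, edgeR adjusted p = 0.032; lost in 9 of 27 settings).

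Of 34 NRF2, glutathione and xenobiotic genes, 2 were higher (5.88%, against 0.767% of all genes), Aldh3a1 and Ephx1, an epoxide hydrolase gene (difference 1.47 ± 0.27, edgeR adjusted p = 0.0185), and the median difference was 0.51. The Ephx1 call was lost in 6 of 27 settings, among them leaving out any 1 of the 4 DMSO and ionomycin libraries of PD7591 (edgeR adjusted p up to 0.174). Without the 4 libraries rich in short transcripts, 67.6% of the differences of this list were positive (median 0.43), against 51.4% of all genes. Of 37 integrated stress response genes, 2 were higher (5.41%, against 0.767%), the amino acid transporter gene Slc7a3 (2.58 ± 0.44) and the factor gene Atf5 (1.11 ± 0.17). Slc7a3 rose by 4.09 in PD7591 and 2.84 in PD454, with an effect of 0.19 in PD883 that did not pass. Its difference from PD454 taken singly did not pass (edgeR adjusted p = 0.261). Atf5 rose by 1.85 in PD7591 and 1.09 in PD883, with an effect of 0.39 in PD454 that did not pass. Its difference from PD883 taken singly did not pass (edgeR adjusted p = 0.0617). Ionomycin raised 81.1% of the 37 in PD7591, 59.5% in PD454 and 86.5% in PD883, against 11.2%, 11.7% and 11.6% of all genes. Of 17 heat shock genes, Hspb1, a small heat shock protein gene, was higher (1.55 ± 0.27; 5.88%, against 0.767%). The calls of Slc7a3, Atf5 and Hspb1 were lost in 3, 1 and 2 of 27 settings. None of 31 endoplasmic reticulum chaperone and unfolded protein response genes passed, with 25 of the 31 differences positive (80.6%, against 54.7%). Without the 4 libraries 27 of the 31 were positive (87.1%, against 51.4%). None of 28 calcium pump, channel and sensor genes or of 17 calcineurin and NFAT genes passed.

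Some lists held 1 or 2 called genes of other kinds. On the higher side these were 2 of 15 integrins (13.3%) and 1 of 38 lysosome and autophagy genes (2.63%), against 0.767% of all genes. On the lower side they were 2 of 27 Wnt and Notch genes (7.41%) and 1 of 22 SMAD-responsive genes (4.55%), against 0.716%. The integrin genes Itga4 and Itgb7 were higher (2.63 ± 0.56 and 1.15 ± 0.27, lost in 9 and 19 of 27 settings), as was the lysosomal enzyme gene Gusb (1.05 ± 0.19, lost in 5). Itga4 rose by 3.25 in PD7591, with effects of 0.69 and 0.55 in PD454 and PD883 that did not pass. Itgb7 rose in every line, by 2.30, 1.19 and 1.11, and differed from neither other line taken singly. Gusb rose by 0.47 in PD7591 and fell by 0.70 in PD883, with an effect of -0.46 in PD454 that did not pass. Taken singly, Itga4 and Gusb differed from PD883 alone. Wnt7b, a Wnt ligand gene, rose by 1.36 in PD7591 against 2.87 in PD454 and 2.16 in PD883 (difference -1.15 ± 0.25; lost in 11). Jag1, a Notch ligand gene, fell by 0.93 in PD7591 and was called in neither other line (difference -1.28 ± 0.29; lost in 12). Tgif1, a corepressor gene of the SMAD-responsive list, rose by 0.81 and 1.09 in PD454 and PD883 and had an effect of -0.14 in PD7591 (difference -1.09 ± 0.25; lost in 15). In no list, the tyrosine kinase gene Fes rose by 1.40 in PD7591 and fell by 2.10 in PD883 (difference 2.23 ± 0.28, edgeR adjusted p = 0.00212). Its effect of 0.44 in PD454 did not pass, nor did its difference from PD454 taken singly (0.96, edgeR adjusted p = 0.126). Mex3b, an RNA-binding protein gene also in no list, fell by 1.48 in PD7591 and was called in neither other line (difference -1.69 ± 0.28, edgeR adjusted p = 0.0105, lost in 2).

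Of 30 G2/M and mitosis genes, 1 passed the test as lower (3.33%, against 0.716% of all genes), the topoisomerase gene Top2a, and 29 of the 30 differences were negative (96.7%, against 45.3% of all genes; median -0.51). This count depended on the libraries: without the 4 rich in short transcripts 22 of the 30 were lower, against 450 of all 13965 genes tested in that fit, and all 30 differences were negative (median -0.88). Within the lines, ionomycin raised none of the 30 in PD7591, 1 in PD454 and 6 in PD883, and lowered 2, 1 and 0. Top2a had 812 and 795 CPM with DMSO and 562 and 571 CPM with ionomycin in PD7591, an effect of 0.16 in PD454 and a rise of 0.86 in PD883 (difference -1.02 ± 0.22, edgeR adjusted p = 0.0342). Of 36 S phase genes, 2 were lower (5.56%, against 0.716%), the replication licensing gene Cdt1 (-1.05 ± 0.22) and the repressor gene E2f7 (-1.24 ± 0.26). Without the 4 libraries 34 of the 36 differences were negative (94.4%, against 48.6% of all genes), with a median of -0.70. The calls of Top2a, Cdt1 and E2f7 were lost in 12, 12 and 11 of 27 settings. Tubb2b, a beta tubulin gene, fell in PD7591 from 101 and 95 CPM to 44.5 and 51 CPM and rose in PD454 from 97.8 and 115 CPM to 162 and 132 CPM, with an effect of 0.39 ± 0.15 in PD883 that did not pass (difference -1.46 ± 0.18, edgeR adjusted p = 0.00212).

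**Figure D5:**
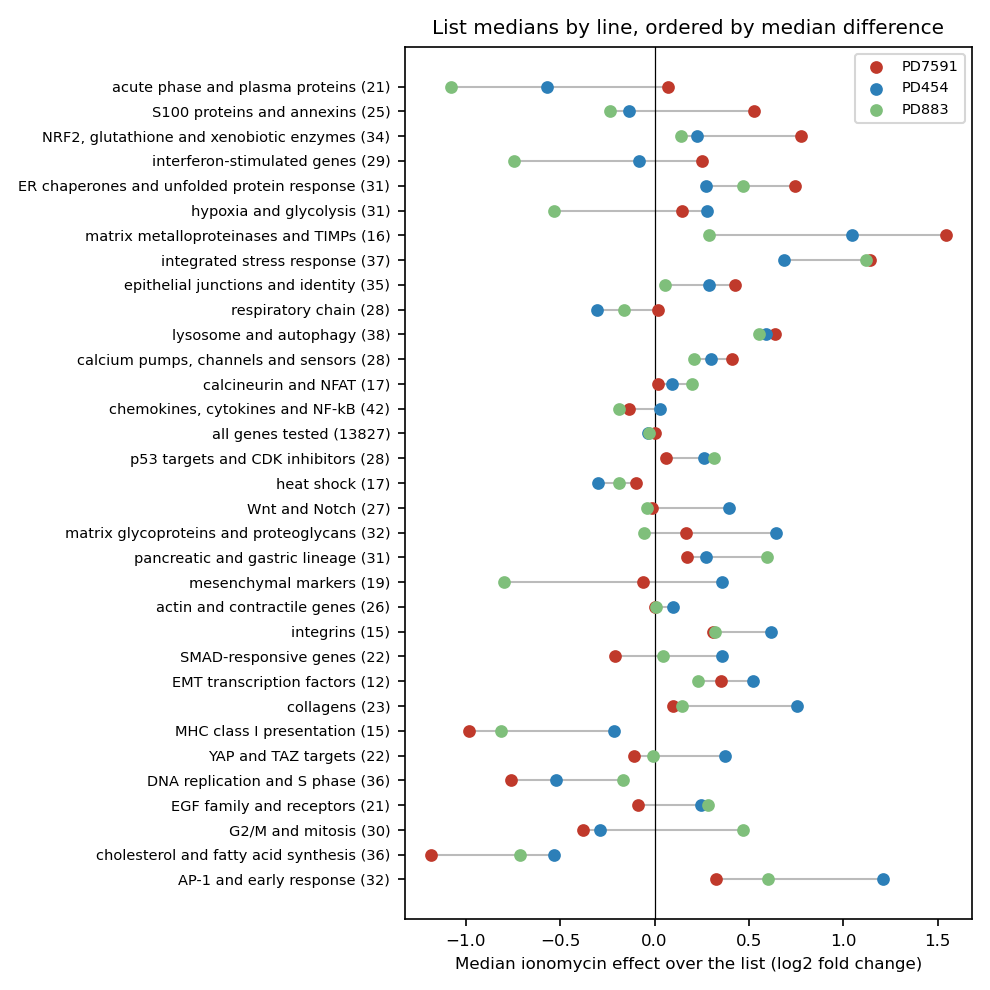
Median ionomycin effect (log2 fold change, horizontal axis) in PD7591, PD454 and PD883 for each gene list with at least 10 tested genes. The cholesterol list has its lowest median in PD7591 (-1.19), and the early response list its highest in PD454 (1.21).

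No difference passed the test for the epithelial-mesenchymal transition factors (0 of 12), the collagens (0 of 23) or the metalloproteinases and their inhibitors (0 of 16). Among epithelial genes 1 of 35 was lower (2.86%, against 0.716% of all genes). It was Cgn, the tight junction gene cingulin (difference -1.15 ± 0.22, edgeR adjusted p = 0.0226, lost in 6 of 27 settings). Cdh1, E-cadherin, had effects of -0.09, 0.07 and -0.19 in PD7591, PD454 and PD883. Fn1, fibronectin, had 0.05, 0.95 and 0.26, and none of these passed. Vim, vimentin, rose by 1.05 ± 0.20 in PD7591, from 1111 and 1088 CPM to 1986 and 2575 CPM, and its effects of 0.41 and -0.29 in the other lines did not pass. Its difference of 0.99 ± 0.24 missed the threshold (edgeR adjusted p = 0.0573) and passed it in 8 of 27 settings. Mmp13, collagenase 3, rose in every line, by 7.72, 6.43 and 8.09 (difference 0.46 ± 1.04, edgeR adjusted p = 0.858). Atp2a3, a calcium pump of the endoplasmic reticulum, rose by 5.41, 3.98 and 3.92 (difference 1.46 ± 0.37, edgeR adjusted p = 0.0636; passed in 6 of 27 settings).

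Some genes were too sparse for a fitted fold change and are given as counts. Mmp3, stromelysin-1, had 3 counts in the DMSO libraries of PD7591 together and 1575 with ionomycin, a ratio of scaled counts of 549 (188 to 2666), with the 95% counting interval in brackets. In PD454 it had 0 and 20 counts, at least 8.84-fold higher if the 2 DMSO libraries together are given 3 counts as their floor, and in PD883 0 and 4. Srpx2, a secreted sushi-repeat protein gene, had 0 counts with DMSO in all 3 lines and 324, 29 and 1 with ionomycin in PD7591, PD454 and PD883. With that floor it was at least 113-fold higher in PD7591 and at least 12.8-fold higher in PD454. Bhlha15, which encodes the secretory cell factor MIST1, had 3 and 107 counts in PD7591, 39 and 59 in PD454 and 31 and 117 in PD883, ratios of 37.3 (12.4 to 184), 2.01 (1.32 to 3.09) and 3.68 (2.46 to 5.66). The intervals and floors cover counting error only, and reads of 1 molecule cannot be told from those of several. The fitted difference passed the test for Bhlha15 (edgeR adjusted p = 0.0131; lost in 3 of 27 settings). For Mmp3 and Srpx2 it did not (edgeR adjusted p = 0.934 and 1), while DESeq2 gave adjusted p of 0.0431 and 0.048 and limma-voom 0.0177 for both.

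TGFb, the other treatment, gives a second contrast on the same DMSO libraries, so its values are set beside those of ionomycin without a measure of likeness. The difference between the TGFb effect in PD7591 and the mean of the other lines passed for 275 genes (1.99%). Egr1, which held its DMSO level with ionomycin in PD7591, rose with TGFb there from 47.4 and 54.4 CPM to 214 and 189.9 CPM, a change of 1.99 against 0.62 in PD454 and -0.01 in PD883 (TGFb difference 1.69, edgeR adjusted p = 0.000802). Jun had TGFb effects of 1.14, 1.83 and 1.12 in the order PD7591, PD454, PD883 (TGFb difference -0.33, edgeR adjusted p = 0.613). Fxyd5 had 4.81, 2.18 and 3.41 (TGFb difference 2.01, edgeR adjusted p = 0.00759). Hmgcs1 had -0.84, -0.26 and -0.57 (TGFb difference -0.43, edgeR adjusted p = 0.238), and Anxa8 had 0.80, -0.03 and 0.27 (TGFb difference 0.68, edgeR adjusted p = 0.0929).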

How the data were processed

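RNA-seq was done on 18 libraries, 2 for each of 9 groups of line and treatment. The authors deposited raw counts per gene, not normalized; per the submitters' processing notes these come from CASAVA, Trimmomatic 0.32, STAR and featureCounts on mm10, with settings and annotation release not given in the sources used here. Per the labels' protocols RNA came from 1 of 2 column kits, and an effect of the kit was not tested. Libraries were placed in groups by their labels.

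Counts were fitted with edgeR 4.0.16 in R 4.3.3 (TMM factors, filterByExpr over the 9 groups, robust quasi-likelihood fit with 1 mean per group), tested on simulated data first. All 18 libraries shared 1 estimate of spread. Contrasts were the effect in each line, its difference between PD7591 and the mean of the others or each other line, and the same for TGFb, with Benjamini-Hochberg adjustment over 13827 genes. SE is the log2 change divided by the square root of F. Depth was 17591005 to 37894692 counts, which leaves genes of a few counts imprecise. Sparse genes have exact 95% intervals or a floor of 3 counts over a group. Date-like names (26 entries) hide the gene's symbol; none of the 19 tested was called.

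Members and gene lists were chosen with earlier results of these data known. Named genes were those apart from both lines with the 10 largest differences each way (more than 3 counts in each group, highest group at least 5 CPM), the 4 smallest p each way, up to 2 per list and direction, those with opposite effects, sparse genes and a fixed panel. The remaining called members of the early response and cholesterol lists, the genes with a cyclic AMP response element and those marked in the text were named after their values were seen. Levels between lines, transcript length and promoter letters were also examined after that. A library is called rich in short transcripts from the relation of its deviations to transcript length. Gene coordinates and promoter stretches are from RefSeq (GRCm38.p6), and transcript lengths and exon overlaps from GENCODE M21 (GRCm38). A called list member is not reported here. Alternatives were DESeq2 1.42.0, limma-voom (limma 3.58.1), other scalings and filters, fewer libraries, each library left out and a cut at a log2 difference of at least 1. The cut kept the main p-values, so the size of each difference alone fixed which calls it lost. It ended 8 of the 72 calls of genes named with a fitted difference.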

Additional observations from a re-analysis of the deposited data

Results flagged for a closer look

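Each gene here was picked out because the test of the difference between PD7591 and the mean of the other lines passed (edgeR quasi-likelihood F test, adjusted p under 0.05); the values are log2 differences and no explanation is offered for them. With 2 libraries a group, libraries standing apart within a group were not tested.

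Among early response and other signalling genes, the difference was -2.55 for Jun, -2.10 for Egr1, -1.52 for Fos, -1.25 for Atf3, -0.88 for Klf6 and -0.79 for Dusp4. It was -2.17 for Pim1, -1.33 for Plk2, -1.24 for Pask, -2.44 for Mapk4, -1.47 for Dusp8, -1.48 for Abtb2 and -1.18 for Errfi1. Traf1 and Tnfaip3 of the NF-kB list had -1.81 for Traf1 and -1.13 for Tnfaip3. The further genes with a cyclic AMP response element had -2.43 for Creb5, -1.16 for Slc25a25, -1.12 for Trim26, -1.23 for Zfp367 and -1.10 for Tubb2a.

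In lipid synthesis, it was -1.35 for Hmgcs1, -1.16 for Lss, -1.14 for Insig1, -1.07 for Scd2, -0.89 for Hsd17b7, -0.88 for Cyp51 and -0.85 for Fads2, with -1.57 for Acat3 and -1.27 for Acat2 outside the list. In cell division and structure, it was -1.02 for Top2a, -1.05 for Cdt1, -1.24 for E2f7, -1.46 for Tubb2b, -1.15 for Cgn and -0.82 for Cald1. Ligand, corepressor and RNA-binding protein genes had -1.15 for Wnt7b, -1.28 for Jag1, -1.09 for Tgif1 and -1.69 for Mex3b.

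On the higher side, secreted and immune-related genes had 4.41 for Csf3, 4.01 for C2, 3.05 for Lcn2, 2.94 for Cxcl5, 3.16 for Serpinb1a and 1.08 for Cd14. Receptor, pump, matrix and enzyme genes had 3.01 for Fxyd5, 2.78 for Aldh3a1, 2.64 for Tnxb, 2.24 for Pilra, 1.79 for Pilrb1, 1.86 for Pilrb2, 1.47 for Ephx1, 2.58 for Slc7a3, 2.44 for Nrip2, 2.63 for Itga4, 1.15 for Itgb7, 1.05 for Gusb and 2.23 for Fes. Calcium-binding and actin-binding genes had 2.23 for Anxa8, 2.17 for S100a4, 1.52 for Capg, 1.45 for Gsn and 1.62 for Vil1. The galectin gene Lgals3 had 1.75, and stress genes had 1.55 for Hspb1 and 1.11 for Atf5. Retinoid genes had 2.19 for Rbp2, 1.04 for Retsat, 0.93 for Rbp4 and 1.18 for Dhrs9 on the higher side and -3.06 for Stra6 and -0.80 for Rdh10 on the lower side.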

How the results depend on the processing

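The differences of the named genes that passed the test kept their sign under all 27 alternatives run. With no filter on low counts, 261 genes were higher and 263 lower, 395 differed from PD454, 652 from PD883 and 118 from both; with DESeq2 these were 359, 422, 547, 873 and 190. With the 12 DMSO and ionomycin libraries alone, 65 were higher and 53 lower, and 159 differed from PD883. Without the 4 libraries rich in short transcripts, 307 were higher and 450 lower, 1450 differed from PD883, 73 from both, and 4004 were called within PD7591. Leaving out 1 library at a time gave 12 to 133 genes higher, 14 to 177 lower, 36 to 182 that differed from PD454, 28 to 477 from PD883 and 8 to 53 from both. Within the lines it gave 1114 to 2723 genes in PD7591, 1010 to 3143 in PD454 and 1903 to 3254 in PD883. DESeq2 called 204 of the 205 genes again, and 196 were called again without the 4 libraries. Of 72 called genes named with a fitted difference, 22 passed in all 27 alternatives, 50 lost the call in at least 1 and 25 in more than 9. The call was lost most often without ionomycin library 4 of PD7591 (48 genes) and without its DMSO library 1 (45) or 2 (43). Scaling by library totals moved the median log2 effect of all genes from -0.03 to -0.12 in PD454 and from -0.03 to -0.13 in PD883, and that of the difference from 0.06 to 0.09. The cause of these changes was not tested. No paired analysis was possible because the groups share no library numbers. With 2 libraries a group, a group left with 1 library was taken to vary like the other groups, and genes of a few counts gave only counting intervals.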

Other observations

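Genes of retinoid handling stood on both sides, and all but Rbp2 were named after their values were seen. Retsat, retinol saturase, rose in PD7591 from 13.5 and 14.6 CPM to 28.5 and 29.3 CPM, with effects of 0.00 and 0.01 in PD454 and PD883 (difference 1.04 ± 0.18, edgeR adjusted p = 0.0115). Its ionomycin level in PD7591 overlapped the levels of the other lines, whose DMSO libraries held 27.5 and 32.5 CPM and 31.5 and 26.3 CPM. Rbp4, the plasma retinol-binding protein gene, and Dhrs9, a retinol dehydrogenase gene, rose in all 3 lines and most in PD7591. Rbp4 rose by 2.25 against 1.41 and 1.23, and Dhrs9 by 3.09 against 2.16 and 1.67. In the other direction, Stra6, the retinol uptake receptor gene, fell in PD7591 from 5.65 and 9.86 CPM to 0.235 and 0.592 CPM, and its effects of -0.81 and -1.55 in the other lines did not pass (difference -3.06 ± 0.71, edgeR adjusted p = 0.0479). Rdh10, a retinol dehydrogenase gene, fell by 1.22 in PD7591, with effects of -0.40 and -0.43 that did not pass. The calls of Retsat, Rbp4, Dhrs9, Stra6 and Rdh10 were lost in 3, 10, 5, 14 and 18 of 27 alternatives.

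Some called genes were neighbours of 1 family, also noted after their values were seen. Pilra, Pilrb1 and Pilrb2, paired immunoglobulin-like receptor genes on chromosome 5, had differences of 2.24, 1.79 and 1.86. The beta tubulin genes Tubb2a and Tubb2b on chromosome 13 had -1.10 and -1.46. Members of each group are similar in sequence, so reads may be shared between them, and the calls of Pilrb1, Pilrb2 and Tubb2a were lost in 10, 12 and 12 of 27 alternatives.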
